A study of Mus musculus with 18 samples.

Results

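The transcripts of 10 feedback genes of ERK and ERBB receptor signalling were followed across 6 groups of mouse mammary cells. The genes were Errfi1, Dusp4, Dusp5, Dusp6, Spry1, Spry2, Spry4, Spred1, Etv4 and Etv5, taken by gene symbol from the 19938 genes that the arrays measured through a probe set assigned to a single gene. Of several such probe sets of a gene, that with the highest mean over all 18 arrays was used. All 10 genes were found, and Etv5 alone had 2 single-gene probe sets. The values below are log2 intensities, so a difference of 1 is a factor of 2, and a gene was called changed where the adjusted p of limma, a linear model fitted to all genes together, was under 0.05.

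ERBB receptors, among them EGFR and erbB2, pass growth factor signals through the RAS, RAF and MEK proteins to the kinase ERK. ERK activity switches on transcription of genes whose products then dampen the same route, so that the transcripts of these inhibitors are widely read as a record of recent pathway activity. Errfi1 (also called Mig6) binds and inhibits ERBB kinases, the Dusp proteins remove phosphate from MAP kinases, Sprouty and Spred proteins act upstream on RAS and RAF, and Etv4 and Etv5 are ETS transcription factors induced by the pathway. In mammary epithelium, EGFR ligands drive growth of the ducts and amplified erbB2 drives a class of breast cancer.

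The 6 groups had 3 arrays each. Comma-D is a line of normal mouse mammary epithelial cells, labelled negative for erbB2 and for its phosphorylated form. MMTV-neu is a mammary tumour line, labelled positive for both, from mice whose neu transgene (the rat form of erbB2) is driven by the mouse mammary tumour virus promoter. The lines were grown together at ratios labelled 1:50 and 1:1, and each co-culture was sorted into fractions by beads that carried antibody to erbB2. The labels do not state which line is the smaller part of the 1:50 ratio. The erbB2- fractions of both co-cultures are labelled normal. The 1:1 erbB2+ fraction is labelled cancer and positive for phosphorylated erbB2, whereas the 1:50 erbB2+ fraction is labelled "Redirected", positive for erbB2 and negative for phosphorylated erbB2. Comma-D and the co-cultures were kept in medium with 2% serum, insulin at 10 ug/ml and EGF, the ligand of EGFR, at 5 ng/ml. MMTV-neu cells were kept in medium with 10% serum and no listed EGF. The MMTV-neu line and its medium therefore cannot be told apart in any comparison with that group. Sorting is described only for the co-cultures. Growth together and the handling of the sort thus cannot be told apart where a fraction is compared with a line. The replicates are numbered samples of each group, and since the labels do not name separate cultures, p-values measure only the spread between these samples, which may be technical.

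The arrays were not on an identical scale. The median log2 value over all probe sets was 6.01 to 6.03 on the Comma-D arrays and 6.45 to 6.48 on the MMTV-neu arrays, and the SD over probe sets was 1.97 to 1.99 and 1.51 to 1.55. The 1:1 erbB2+ arrays had medians of 6.28 to 6.41 and the 1:50 erbB2+ arrays of 6.06 to 6.14. The 4985 genes with the highest Comma-D levels had a median difference of -1.37 in MMTV-neu and -1.23 in the 1:1 erbB2+ fraction, but -0.26 in the 1:50 erbB2+ and -0.0054 in the 1:50 erbB2- fraction. These genes include Errfi1, Dusp4, Dusp6, Spry1, Spred1 and Etv5. Even Actb, the cytoskeletal actin gene, averaged 13.30 for Comma-D and 9.36 for MMTV-neu. Values after 3 rescalings stand beside many, but not all, of the differences that involve MMTV-neu or the 1:1 erbB2+ fraction. Where 3 are listed together, the order is centring, quantile normalization and cyclic loess. With each array centred on 8 reference genes, the median difference of all genes between MMTV-neu and Comma-D moved from 0.40 to 1.69, against 0.23 after quantile normalization and 0.023 after cyclic loess. For the 1:50 erbB2+ fraction against Comma-D, the same median was 0.0083, 0.27 with centring, 0.033 after quantile normalization and 0.013 after cyclic loess. The 8 reference genes were themselves not stable, which limits what centring can show. In MMTV-neu against Comma-D, 7 were called lower and 1 higher, from -2.91 (Tbp) to 0.24 (Ywhaz), with a mean of -1.29. The array of replicate 1 of the 1:1 erbB2- fraction, stood apart from its group with a median of 6.25 against 6.10 and 6.05, and results that rest on it are given with and without it.

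The labels were compared with marker genes. Krt8, a keratin of luminal cells, averaged 7.41 on the Comma-D arrays and 11.34 on those of MMTV-neu, with 7.90 and 10.76 for the erbB2- and 10.37 and 11.28 for the erbB2+ fractions of the 1:50 and 1:1 co-cultures. The luminal markers did not move together in MMTV-neu, where 7 of 12 were higher and 5 lower than in Comma-D, among the latter Cd24a (-5.18), Epcam (-3.65) and Cdh1 (-2.29). Krt14, a basal keratin, ranged from 7.43 in MMTV-neu to 11.61 in the 1:50 erbB2- fraction. Vim averaged 12.93 in Comma-D and 8.13 in MMTV-neu. In the 1:50 and 1:1 co-cultures Vim averaged 12.97 and 12.79 in the erbB2- and 12.85 and 11.83 in the erbB2+ fractions. Actb averaged 13.32 and 13.22 in the erbB2- and 13.31 and 12.69 in the erbB2+ fractions, in the same order. The mouse Erbb2 probe set had means of 8.20 in Comma-D and 8.06 in MMTV-neu, a difference of -0.14 that limma did not call (adjusted p = 0.184), and its response to the rat transgene is not known. It therefore checks no label. The purity of the fractions was not analysed here. In RNA from sorted mixtures, fewer cells of a type and less RNA per cell cannot be told apart.

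Errfi1, Dusp6, Spry1, Spry2 and Etv5 were lower in the 1:50 fractions than in Comma-D. Among the 10 genes, 5 were called, all lower, in the 1:50 erbB2- fraction against Comma-D, where 1.68% of all genes were called in either direction, 0.592% higher and 1.08% lower. With centring and with quantile normalization the count was 2 of 10, Errfi1 and Dusp6, where 146 and 188 of the 19938 genes were called. In the 1:50 erbB2+ fraction against Comma-D, 5 of 10 were lower and none higher, where 5.71% of all genes were called, 1.17% higher and 4.54% lower. With centring 3 of the 10, Errfi1, Dusp6 and Etv5, were lower, where 270 genes were called. The share of higher genes among all called in that comparison was 20.5%, 49.6% with centring and 42.0% after cyclic loess. Both comparisons use the same 3 Comma-D arrays and are not independent. The median difference of the 10 genes was -0.61 in the erbB2- and -0.65 in the erbB2+ fraction, against 0.017 and 0.0083 over all genes.

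**Figure D1:**
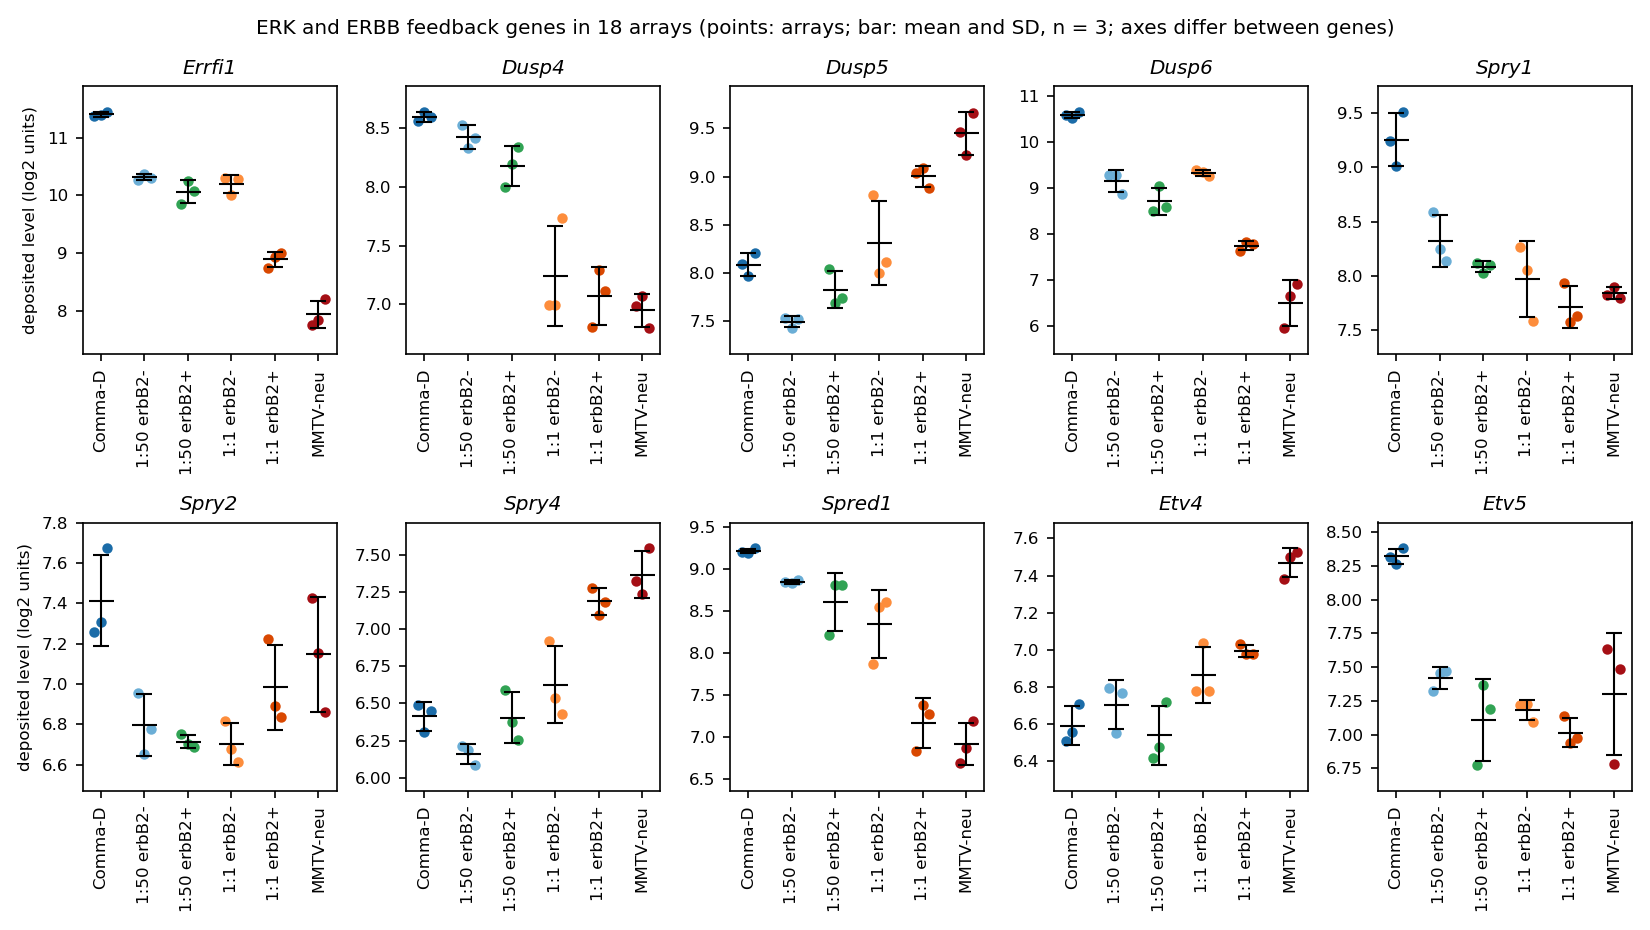
Log2 intensity of each of the 10 feedback genes (vertical axes) in the 6 groups (horizontal axes), where points are single arrays and bars show the mean and SD of 3 arrays. Errfi1 and Dusp6 are highest in Comma-D, intermediate in both 1:50 fractions and the 1:1 erbB2- fraction, and lowest in MMTV-neu, whereas Dusp5, Spry4 and Etv4 are highest in MMTV-neu.

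Errfi1, the inhibitor that acts on the receptors themselves, gave 11.37, 11.39 and 11.44 on the 3 Comma-D arrays. The 1:50 erbB2- arrays read 10.27, 10.37 and 10.30, and the 1:50 erbB2+ arrays 9.86, 10.25 and 10.07. Every array of both 1:50 fractions lay below every Comma-D array. The difference from Comma-D was -1.09 (SE 0.13, 2.13-fold lower, limma adjusted p = 0.000120) in the erbB2- and -1.34 (SE 0.13, 2.53-fold lower, limma adjusted p = 6.38e-06) in the erbB2+ fraction. Errfi1 stayed called in both under each of the 3 rescalings. The 1:1 erbB2- arrays, at 10.30, 10.01 and 10.28, overlapped both 1:50 fractions, and their mean was 1.21 below Comma-D (limma difference -1.21, adjusted p = 1.25e-05). Lower still were the 1:1 erbB2+ arrays at 8.75, 8.93 and 8.99, and the MMTV-neu arrays at 7.76, 7.84 and 8.21. Neither of these groups overlapped any other group. The difference of MMTV-neu from Comma-D was -3.47 (SE 0.13, limma adjusted p = 1.62e-12), and -2.17, -2.69 and -1.82 under the 3 rescalings. That of the 1:1 erbB2+ fraction was -2.51 (limma adjusted p = 9.12e-10), and -1.51, -1.66 and -1.19.

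The promoters of Errfi1, Dusp6 and Dusp5 are shown because Errfi1 and Dusp6 had like profiles over the groups and Dusp5 moved the opposite way in MMTV-neu. Each is the 250 bases before a transcription start in RefSeq, on mouse build GRCm38.p6 and the plus strand, printed 5′ to 3′. Windows of 300 bases, which add 50 bases after the start, were given for 7 of the 10 genes. Capitals mark a cyclic AMP response element (CRE, letters TGACGTCA) in Errfi1 and 2 CArG boxes, the element bound by serum response factor, in Dusp5.
Errfi1, chr4:150854820-150855069: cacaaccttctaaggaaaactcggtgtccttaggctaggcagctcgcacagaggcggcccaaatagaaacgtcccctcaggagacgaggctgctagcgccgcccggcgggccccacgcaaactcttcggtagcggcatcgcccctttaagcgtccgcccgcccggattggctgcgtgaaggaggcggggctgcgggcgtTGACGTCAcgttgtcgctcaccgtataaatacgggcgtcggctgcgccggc
Dusp5, chr19:53528895-53529144: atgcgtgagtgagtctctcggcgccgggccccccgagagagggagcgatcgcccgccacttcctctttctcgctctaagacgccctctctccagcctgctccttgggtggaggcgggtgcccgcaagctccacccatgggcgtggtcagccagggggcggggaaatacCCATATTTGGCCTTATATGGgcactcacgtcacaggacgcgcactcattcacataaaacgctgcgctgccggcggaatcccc
Dusp6, chr10:99262981-99263230: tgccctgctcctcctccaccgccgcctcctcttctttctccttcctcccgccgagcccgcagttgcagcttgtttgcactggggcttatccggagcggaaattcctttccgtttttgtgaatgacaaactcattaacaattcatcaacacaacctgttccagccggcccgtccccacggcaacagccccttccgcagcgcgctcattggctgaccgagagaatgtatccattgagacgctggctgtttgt
The CRE of Errfi1 lies at chr4:150855019-150855026, with its first base at -51 from the later of 2 listed starts. The CArG boxes of Dusp5, which do not overlap, lie side by side at chr19:53529063-53529072 and chr19:53529073-53529082, with first bases at -82 and -72. The 4 motifs searched, on both strands and in the windows of all 7 genes, were the CRE, the CArG box by name, the AP-1 site TGANTCA and the ETS site CCGGAAGT. Of 32851 mouse windows of the same length, 1.79% held the CRE, 1.63% a CArG box, 7.81% the AP-1 site and 3.89% the ETS site. The windows of the other genes, Dusp6 included, held none of these motifs. The window of the earlier Errfi1 start, chr4:150853546-150853845, held none of them either. A match is a description of the sequence, and binding was not measured.

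Among the phosphatases, Dusp6 removes phosphate from ERK in the cytoplasm. It read 10.60, 10.53 and 10.65 in Comma-D, 9.27, 9.29 and 8.87 in the 1:50 erbB2- fraction, and 8.49, 9.05 and 8.59 in the 1:50 erbB2+ fraction. No array of either fraction reached a Comma-D array, although 1 erbB2+ array, at 9.05, lay above the lowest erbB2- array. The decrease from Comma-D was 2.73-fold in the erbB2- fraction (difference -1.45, SE 0.19, limma adjusted p = 0.000392) and 3.69-fold in the erbB2+ fraction (difference -1.88, SE 0.19, limma adjusted p = 1.71e-05). Both calls remained under all 3 rescalings. The 1:1 erbB2- arrays read 9.38, 9.35 and 9.26 and the 1:1 erbB2+ arrays 7.62, 7.81 and 7.78, so that the 1:1 fractions did not overlap. MMTV-neu was lowest at 5.94, 6.66 and 6.91, a mean only 0.041 above the median of its arrays. Its difference from Comma-D, the largest of the 10 genes, was -4.09 (SE 0.19, limma adjusted p = 3.50e-11), and -2.80, -3.90 and -3.07 under the 3 rescalings.

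Dusp5, an ERK phosphatase of the nucleus, ran the other way. Its arrays read 8.09, 7.96 and 8.20 in Comma-D, 9.47, 9.22 and 9.66 in MMTV-neu, and 9.04, 9.09 and 8.88 in the 1:1 erbB2+ fraction. The latter groups did not overlap Comma-D. Dusp5 was higher than in Comma-D by 1.37 in MMTV-neu (SE 0.17, limma adjusted p = 1.42e-06) and by 0.92 in the 1:1 erbB2+ fraction (limma adjusted p = 0.000125, with 1.92, 1.60 and 1.74 after rescaling). The MMTV-neu difference was 2.66 with centring, 2.27 after quantile normalization and 2.18 after cyclic loess. The 1:50 erbB2+ arrays of Dusp5 read 8.04, 7.69 and 7.74 and overlapped Comma-D, with a difference of -0.26 that was not called (limma adjusted p = 0.384). The 1:50 erbB2- arrays, at 7.53, 7.42 and 7.52, were all below Comma-D, but their difference of -0.59 was not called either (limma adjusted p = 0.118).

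Dusp4, the third ERK phosphatase, differed between the co-culture ratios in both fractions. It read 8.56, 8.64 and 8.59 in Comma-D, 8.53, 8.33 and 8.42 in the 1:50 erbB2- and 8.0, 8.19 and 8.34 in the 1:50 erbB2+ fraction. In the 1:1 co-culture the erbB2- arrays read 7.0, 7.0 and 7.74 and the erbB2+ arrays 6.81, 7.29 and 7.12, both overlapping MMTV-neu at 6.99, 7.07 and 6.80. No array of a 1:50 fraction overlapped a 1:1 fraction. The 1:50 fraction was higher than the 1:1 fraction by 1.18 among erbB2- cells (SE 0.17, limma adjusted p = 0.00102) and by 1.11 among erbB2+ cells (SE 0.17, limma adjusted p = 5.01e-05). Without replicate 1 of the 1:1 erbB2- fraction the former was 1.06 (limma adjusted p = 0.00456). In a fit of the compared groups alone the erbB2- difference was not called (limma adjusted p = 0.0635), and that fit called 2 of all genes. The 4985 genes highest in Comma-D, Dusp4 among them, had medians of 0.50 (erbB2-) and 0.92 (erbB2+) for the same differences. The means of the 8 reference genes were 0.33 and 0.74. The part of these shared shifts in the Dusp4 differences was not tested. Against Comma-D, the differences of -0.17 and -0.42 in the 1:50 erbB2- and erbB2+ fractions were not called (limma adjusted p = 0.9995 and 0.160).

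Spry1, an inhibitor of RAS activation, was lower in every other group than in Comma-D, although with centring not all of these calls held. Its Comma-D arrays read 9.24, 9.01 and 9.51, whereas the 1:50 erbB2- arrays read 8.59, 8.24 and 8.13 and the 1:50 erbB2+ arrays 8.12, 8.02 and 8.10. The remaining groups lay between 7.57 and 8.27, with MMTV-neu at 7.82, 7.90 and 7.80. None of these arrays overlapped Comma-D. The difference from Comma-D was -0.93 in the 1:50 erbB2- fraction (SE 0.17, limma adjusted p = 0.00521) and -1.17 in the 1:50 erbB2+ fraction (SE 0.17, limma adjusted p = 0.000342). The erbB2- call was lost with centring and after quantile normalization, and the erbB2+ call with centring (limma adjusted p = 0.0638). The MMTV-neu difference of -1.42 became -0.12 with centring and was not called (limma adjusted p = 0.633), and was -0.67 and -0.72 under the other rescalings. The 1:50 erbB2+ and MMTV-neu arrays did not overlap, yet their difference of 0.24 was not called (limma adjusted p = 0.179) and turned to -0.79, -0.20 and -0.25 under the 3 rescalings.

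Spry2, its close relative, showed smaller differences. Its arrays read 7.26, 7.31 and 7.67 in Comma-D, 6.96, 6.66 and 6.78 in the 1:50 erbB2- and 6.75, 6.70 and 6.69 in the 1:50 erbB2+ fraction. Neither fraction overlapped Comma-D, where replicate 3 was the highest array. The differences were -0.62 (SE 0.15, limma adjusted p = 0.0415) and -0.70 (SE 0.15, limma adjusted p = 0.00925). Without replicate 3 of Comma-D the erbB2+ difference was -0.57 and no longer called (limma adjusted p = 0.0676), and the erbB2- call was lost when any of 5 of the 6 arrays it compares was left out. MMTV-neu, at 7.43, 7.15 and 6.86, overlapped Comma-D, and its difference of -0.27 was not called (limma adjusted p = 0.0982). It was 1.03 with centring, -0.15 after quantile normalization and -0.63 after cyclic loess.

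Spry4 and Etv4 were higher in MMTV-neu and in the 1:1 erbB2+ fraction than in Comma-D and were not called in either 1:50 fraction. Spry4, the third Sprouty measured, read 6.49, 6.31 and 6.45 in Comma-D, 7.32, 7.24 and 7.54 in MMTV-neu and 7.28, 7.10 and 7.18 in the 1:1 erbB2+ fraction. Its difference from Comma-D was 0.95 in MMTV-neu (SE 0.13, limma adjusted p = 2.75e-06) and -0.0078 in the 1:50 erbB2+ fraction (95% interval -0.28 to 0.26, limma adjusted p = 0.979). The MMTV-neu difference was 2.25 with centring, 0.99 after quantile normalization and 0.38 after cyclic loess. Etv4 read 6.51, 6.56 and 6.71 in Comma-D and 7.38, 7.50 and 7.53 in MMTV-neu, without overlap. That difference was 0.88 (SE 0.11, limma adjusted p = 1.05e-06), and 2.17, 1.00 and 0.43 under the 3 rescalings in the same order. Both genes lay within 1.01 of the array medians in every group.

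Spred1, whose product acts upstream on RAS and RAF, gave tight Comma-D arrays of 9.21, 9.20 and 9.25 and 1:50 erbB2- arrays of 8.84, 8.83 and 8.88. The 1:50 erbB2+ arrays spread more, at 8.21, 8.81 and 8.81, and neither fraction overlapped Comma-D. The differences from Comma-D of -0.37 and -0.61 were not called in either (limma adjusted p = 0.707 and 0.0834). In the 1:1 co-culture Spred1 read 7.88, 8.55 and 8.61 in the erbB2- and 6.84, 7.39 and 7.28 in the erbB2+ fraction, which overlapped MMTV-neu at 6.70, 6.88 and 7.19. MMTV-neu was 2.29 below Comma-D (limma difference -2.29, SE 0.20, adjusted p = 3.10e-08), with -1.0, -1.99 and -1.60 after rescaling.

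Etv5, the ETS factor with 2 probe sets, read 8.31, 8.27 and 8.38 in Comma-D and at most 7.64 on every other array. The 1:50 erbB2- arrays read 7.33, 7.46 and 7.47, the 1:50 erbB2+ arrays 6.78, 7.37 and 7.19, and the MMTV-neu arrays 7.64, 6.78 and 7.48. These 3 groups overlapped one another and not Comma-D. The difference from Comma-D was -0.90 in the 1:50 erbB2- fraction (SE 0.17, limma adjusted p = 0.0109), -1.21 in the 1:50 erbB2+ fraction (SE 0.17, limma adjusted p = 0.000452) and -1.02 in MMTV-neu (SE 0.17, limma adjusted p = 4.11e-05). The MMTV-neu difference turned to 0.27 with centring and was -0.65 and -1.0 under the other rescalings. The erbB2- call was lost with centring, with quantile normalization, and without replicate 1 or 3 of Comma-D (limma adjusted p = 0.0521 and 0.0635). The second probe set gave -0.57 in the 1:50 erbB2- fraction (limma adjusted p = 0.0361), -0.80 in the 1:50 erbB2+ fraction (limma adjusted p = 0.00141) and -1.21 in MMTV-neu. It also put the 1:50 erbB2+ fraction 0.41 above MMTV-neu (limma adjusted p = 0.00644), where the probe set used here gave -0.19 (limma adjusted p = 0.319).

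**Figure D2:**
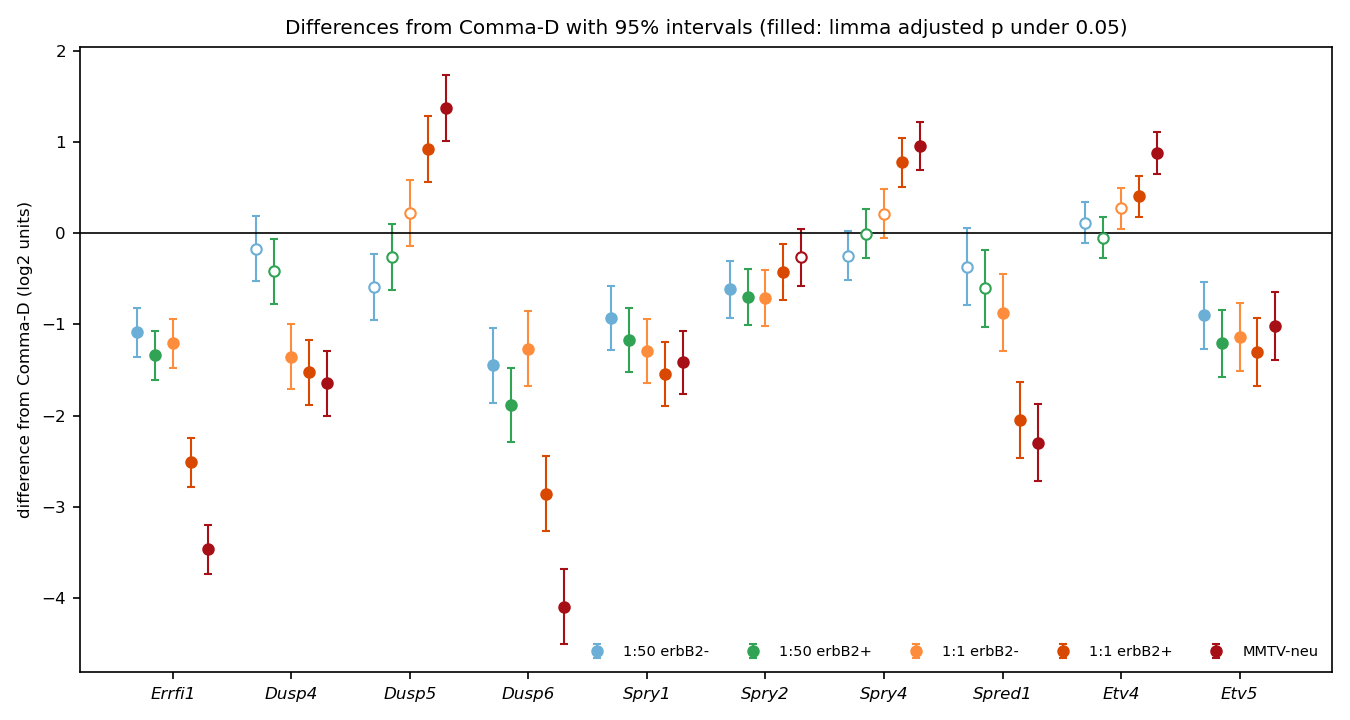
Difference of each feedback gene from Comma-D in log2 units (vertical axis) for the other 5 groups, with 95% intervals, where filled points are those with a limma adjusted p under 0.05. Errfi1 lies at -1.09 and -1.34 in the 1:50 erbB2- and erbB2+ fractions and at -3.47 in MMTV-neu, and Spry4 at -0.0078 in the 1:50 erbB2+ fraction and 0.95 in MMTV-neu.

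Comparing MMTV-neu with Comma-D, limma called 9 of the 10 feedback genes, with 3 up and 6 down, where 86.8% of all genes were called, 56.4% higher and 30.4% lower. A count of 9 is near that background. The share of higher genes among all called was 65.0%, 88.4% with centring and 50.5% after cyclic loess. The median difference of the 10 genes was -1.22, against 0.40 over all genes. All 6 lower genes were among the 4985 highest in Comma-D, whose median difference was -1.37. Dusp4 (-1.65), Spry1 (-1.42) and Etv5 (-1.02) lay nearer to that median than Errfi1 (-3.47), Dusp6 (-4.09) and Spred1 (-2.29). Dusp5, Spry2, Spry4 and Etv4 were among the next 4984 genes by Comma-D level, with a median of 0.017. The part of Comma-D level in the split between higher and lower genes was not tested. Of the 6 lower genes, Etv5 alone turned sign with centring, and Spry2, which was not called, moved to 1.03. Spry1 (-0.12) and Dusp4 (-0.35, limma adjusted p = 0.0508) were no longer called with centring, which left 3 genes lower (Errfi1, Dusp6 and Spred1) and 4 higher (Dusp5, Spry2, Spry4 and Etv4).

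The 1:1 erbB2+ fraction, which carries the same label of phosphorylated erbB2 as MMTV-neu, had fewer called differences from it than from Comma-D. Against Comma-D, all 10 genes were called, 3 higher and 7 lower, where 78.3% of all genes were called, 45.8% higher and 32.5% lower. Higher genes were 58.5% of all called, and 86.2% with centring. The higher genes were Dusp5, Spry4 and Etv4, and Spry2 (difference -0.43) moved to 0.58 with centring. Calls were lost for Etv5 with centring (limma adjusted p = 0.200), Spry2 after quantile normalization (limma adjusted p = 0.109) and Etv4 after cyclic loess (limma adjusted p = 0.313). Against MMTV-neu, 3 of 10 were called, where 18.3% of all genes were, 4.21% higher and 14.1% lower. Higher genes were 23.0% of these, 7.62% with centring, 36.3% after quantile normalization and 60.8% after cyclic loess. Errfi1 was 0.96 higher in the fraction (SE 0.13, limma adjusted p = 0.000125), with 0.67, 1.03 and 0.63 after rescaling. Dusp6 was 1.24 higher (SE 0.19, limma adjusted p = 0.000621), with 0.95, 1.73 and 1.18. Etv4 was lower (difference -0.47, SE 0.11, limma adjusted p = 0.00748), with -0.76, -0.66 and -0.30, and was not called after cyclic loess (limma adjusted p = 0.0829). The other 7 genes differed by 0.12 to 0.45 in size and were not called, which does not show that they were equal.

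The erbB2+ fractions differed from each other. Of the 10 genes, 7 were called between the 1:50 and the 1:1 erbB2+ fraction, 4 higher and 3 lower at 1:50, where 71.4% of all genes were called, 27.4% higher and 44.0% lower. A count of 7 is at that background. Higher genes were 38.4% of all called, 12.9% with centring and 50.6% after cyclic loess. Spred1 was 1.44 higher at 1:50, Errfi1 1.17, Dusp4 1.11 and Dusp6 0.97, whereas Dusp5 (-1.18), Spry4 (-0.78) and Etv4 (-0.45) were lower. Under the rescalings Spred1 was 0.70, 1.23 and 0.91 and Dusp5 -1.92, -1.71 and -1.79. Errfi1 was 0.43, 0.50 and 0.12 and Dusp6 0.23, 0.55 and 0.24. Errfi1 was not called after cyclic loess (limma adjusted p = 0.586), and Dusp6 under none of the 3 (limma adjusted p = 0.0507 to 0.367). Etv4 was -0.21 and not called after cyclic loess (limma adjusted p = 0.118). In the comparison of the 1:50 erbB2+ fraction with MMTV-neu, 8 of 10 genes were called, 4 higher and 4 lower, where 83.4% of all genes were called (25.8% higher and 57.6% lower), so the count is near the background. Higher genes were 30.9% of all called, 10.7% with centring and 50.3% after cyclic loess. Errfi1 was 2.13 and Dusp6 2.21 higher in the 1:50 erbB2+ fraction than in MMTV-neu, and Dusp5 was lower by a difference of -1.63 and Spry4 of -0.96. The 4985 genes highest in Comma-D, Errfi1 and Dusp6 among them, had a median difference of 1.05. After rescaling, Errfi1 was 1.10, 1.53 and 0.75 and Dusp6 1.18, 2.28 and 1.43 higher. Dusp5 was at -2.66, -2.37 and -2.23 and Spry4 at -1.99, -1.05 and -0.44. Dusp4 was 1.23 higher, but 0.20 and not called with centring (limma adjusted p = 0.261). Spry2 was lower (-0.43), but not called after cyclic loess (limma adjusted p = 0.657). These comparisons share the 1:50 erbB2+ arrays.

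The erbB2- fractions were also compared. The 1:1 erbB2- fraction had 7 of 10 genes lower than in Comma-D and none higher, where 35.7% of all genes were called, 14.9% higher and 20.9% lower. Higher genes were 41.6% of all called, 87.5% with centring, 57.3% after quantile normalization and 53.5% after cyclic loess. The 7 genes were Errfi1, Dusp4, Dusp6, Spry1, Spry2, Spred1 and Etv5, with differences of -0.71 (Spry2) to -1.35 (Dusp4). The 4985 genes highest in Comma-D, which include all of the 7 but Spry2, had a median difference of -0.50. With centring the Spry2 call was lost (limma adjusted p = 0.174), and Spry4 (0.58, limma adjusted p = 0.0463) and Etv4 (0.64, limma adjusted p = 0.0150) were called higher. The Spred1 call was lost after quantile normalization (limma adjusted p = 0.123). All 7 stayed called without replicate 1 of the fraction. Between the erbB2- fractions, 3 of 10 genes were called, where 30.3% of all genes were (21.4% higher and 8.87% lower), a share at the background. Higher genes were 70.7% of all called, 12.9% with centring, 48.5% after quantile normalization and 42.1% after cyclic loess. Besides Dusp4, these were Dusp5 (-0.81 at 1:50, limma adjusted p = 0.00624) and Spry4 (-0.46, limma adjusted p = 0.0170). Without that array Dusp5 was -0.56 (limma adjusted p = 0.0268) and Spry4 -0.32 and no longer called (limma adjusted p = 0.113). Errfi1 and Dusp6 differed between the erbB2- fractions by 0.12 and -0.19 and were not called (limma adjusted p = 0.465 and 0.450).

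**Figure D3:**
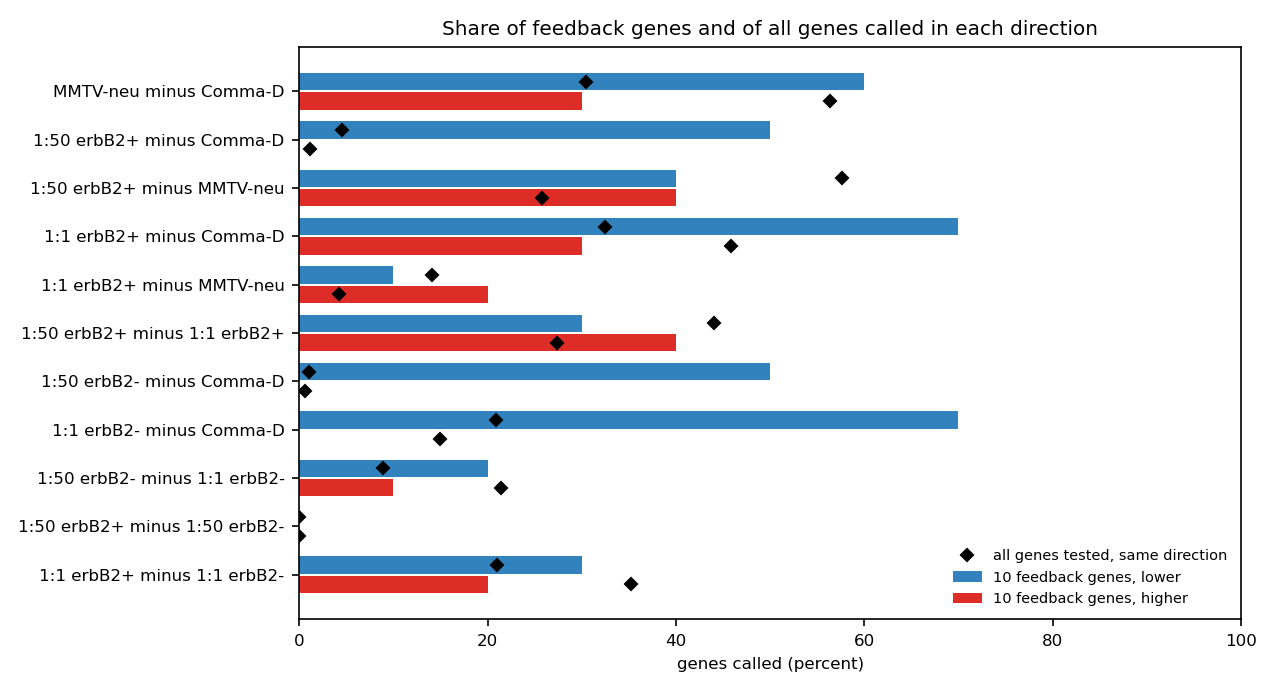
Share of the 10 feedback genes called lower (blue bars) and higher (red bars) in percent (horizontal axis) in 11 comparisons, with diamonds for the share of all 19938 genes called in the same direction. In the 1:50 fractions against Comma-D, 5 of 10 genes were lower, where 1.08% (erbB2-) and 4.54% (erbB2+) of all genes were.

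In the 1:1 co-culture, 5 of the 10 genes were called between the erbB2+ and erbB2- fractions, 2 higher and 3 lower, where 56.1% of all genes were called, 35.2% higher and 21.0% lower. A count of 5 is near that background. With centring 9 were called, 6 higher and 3 lower, where 16208 of the 19938 genes were called. Higher genes were 62.7% of all called, 91.1% with centring and 49.6% after cyclic loess. Dusp6 was 3.01-fold lower in the erbB2+ fraction (difference -1.59, SE 0.19, limma adjusted p = 3.10e-05), Errfi1 2.47-fold lower (difference -1.30, SE 0.13, limma adjusted p = 5.15e-06) and Spred1 lower by a difference of -1.18 (limma adjusted p = 0.000322). The 4985 genes highest in Comma-D, these 3 lower genes among them, had a median difference of -0.67. Dusp5 was 0.70 higher (limma adjusted p = 0.00350) and Spry4 0.56 higher (limma adjusted p = 0.00228). These 5 stayed called without replicate 1 of the erbB2- fraction, with Dusp5 at 0.95. After rescaling, Errfi1 was at -0.66, -0.76 and -0.51, Dusp6 at -0.95, -1.30 and -1.08, and Spred1 at -0.54, -1.13 and -0.83. Dusp5 was at 1.34, 1.10 and 1.11, and Spry4 at 1.20, 0.58 and 0.27, the last not called (limma adjusted p = 0.0530).

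In the 1:50 co-culture, none of the 10 genes was called between the fractions by limma, and 1 of 10, Dusp6, had an unadjusted p under 0.05. Over all genes 0.010% were called (2 genes), and 13.4% had an unadjusted p under 0.05. The difference of Errfi1 was -0.25 (95% interval -0.52 to 0.017, limma adjusted p = 0.398), although every erbB2+ array lay below every erbB2- array. For Dusp6 it was -0.43 (95% interval -0.84 to -0.024, limma adjusted p = 0.349). A p that misses the threshold does not show that the fractions were alike.

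The difference between fractions was itself compared between the co-cultures, with an interaction term. For 2 of 10 genes it was called, both in the higher direction, where 2.75% of all genes were called, 2.45% higher and 0.301% lower. Higher genes were 89.1% of all called, 70.9% after quantile normalization and 74.1% after cyclic loess, and with centring 3 genes were called at all. The term is the erbB2+ minus erbB2- difference at 1:50 less that at 1:1, and it was 1.05 for Errfi1 (SE 0.18, limma adjusted p = 0.00727) and 1.16 for Dusp6 (SE 0.27, limma adjusted p = 0.0349). The 4985 genes highest in Comma-D had a median of 0.38 for the same term. Neither call held under any of the 3 rescalings, where the term was 0.56 to 0.70 for Errfi1 and 0.75 to 1.08 for Dusp6. The Dusp6 call was also lost in 8 of 12 fits that left out 1 of the compared arrays. Without replicate 1 of the 1:1 erbB2- fraction 5 genes were called, among them Spred1 at 1.17, which was 0.94 and not called with all arrays as deposited (limma adjusted p = 0.0800). With all arrays, Spred1 was called after quantile normalization (1.08, limma adjusted p = 0.0423), but not with centring or after cyclic loess.

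**Figure D4:**
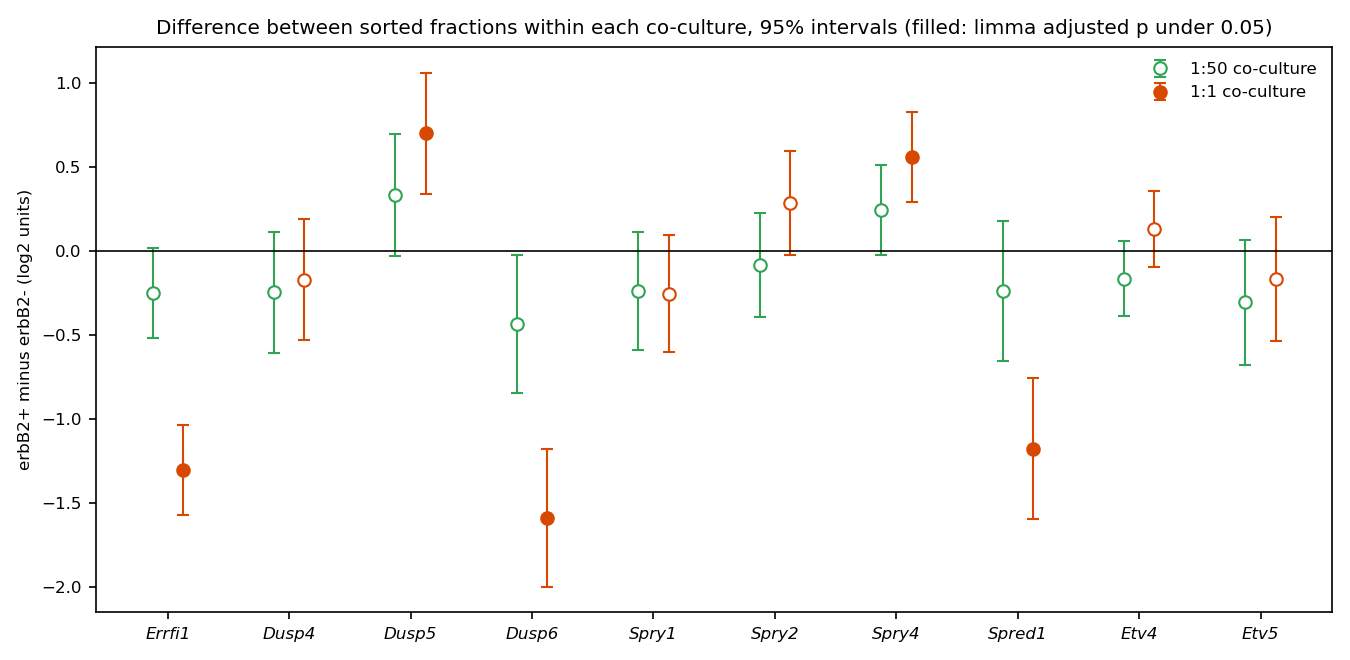
Difference between the erbB2+ and erbB2- fraction of a co-culture in log2 units (vertical axis) for each feedback gene, at 1:50 (green) and 1:1 (orange), with 95% intervals, where filled points are those with a limma adjusted p under 0.05. Errfi1 lies at -0.25 at 1:50 and -1.30 at 1:1, and Dusp6 at -0.43 and -1.59.

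Other genes of the pathway were read from lists that do not overlap the 10. Of 13 further ERK targets measured, 4 were lower and none higher than Comma-D in the 1:50 erbB2- fraction, where 1.08% of all genes were lower, with a list median of -0.50 against 0.017 over all genes. They were Fos (-1.59), Egr1 (-1.22), Hbegf (-1.08) and Fosl1 (-0.95), which encode transcription factors and, in Hbegf, an EGFR ligand. Of the same 13, 6 were lower and none higher in the 1:50 erbB2+ fraction, where 4.54% of all genes were lower, led by Fos (-1.72, limma adjusted p = 6.13e-06), Hbegf (-1.29), Fosl1 (-1.23) and Egr1 (-1.23), and the list median was -0.75. Under the 3 rescalings the counts of lower targets were 4 to 5 in the erbB2+ and 3 to 4 in the erbB2- fraction. In MMTV-neu 11 were lower and 2 higher, where 86.8% of all genes were called and 30.4% were lower, led by Ier3 (-2.55), Egr1 (-2.47), Myc (-2.46) and Phlda1 (-2.16), whereas with centring 6 were lower and 4 higher. The 1:1 erbB2- fraction had 9 lower and none higher, where 20.9% of all genes were lower.

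Of 12 immediate early genes, which serum and growth factors induce within minutes and which share Fos and Egr1 with the previous list, 5 were lower and none higher than Comma-D in each 1:50 fraction, where 1.08% (erbB2-) and 4.54% (erbB2+) of all genes were lower. Fosb led in both, at -2.37 in the erbB2- and -2.27 in the erbB2+ fraction. Under the rescalings 2 to 4 of the 12 were lower in either fraction. Among 11 relatives of the feedback genes, Dusp1, a phosphatase of several MAP kinases, was the only gene lower than Comma-D in the 1:50 erbB2- fraction (-0.59), and with centring it was not called. In the 1:50 erbB2+ fraction Dusp1 (-0.75) was lower and Dusp8 (0.42, limma adjusted p = 0.0372) higher. In MMTV-neu 5 relatives were lower, led by Dusp7 (-3.81) and Dusp1 (-3.71), and 6 higher, led by Dusp2 (1.25) and Dusp9 (1.19), where 30.4% of all genes were lower and 56.4% higher. Dusp1 also had an interaction term of 1.59 (limma adjusted p = 0.000217).

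A further list held 10 other brakes on ERBB receptors, such as ubiquitin ligases and tyrosine phosphatases. In the 1:50 erbB2- fraction limma called none of these 10 against Comma-D, with 1 at an unadjusted p under 0.05, and Socs5 alone (-0.64) was lower in the 1:50 erbB2+ fraction. All 10 were lower in MMTV-neu, where 86.8% of all genes were called and 30.4% were lower, led by Ptprj (-2.64), Cblb (-2.17), Ptpn12 (-2.17) and Socs4 (-2.11), although with centring 4 were lower and 1 higher and Lrig3, Cbl and Socs5 turned. Of 12 measured members of the signalling cascade itself, Ksr1 (-0.66) was lower in the 1:50 erbB2- fraction, and 3 were lower in the 1:50 erbB2+ fraction, led by the adaptor Shc1 (-0.88). All 3 calls were lost with centring and with quantile normalization. Egfr, the receptor of the EGF in the medium, had a mean of 8.36 in Comma-D, 8.79 in the 1:50 erbB2- and 8.46 in the 1:50 erbB2+ fraction, and 6.80 in MMTV-neu. It was not called in either 1:50 fraction (limma adjusted p = 0.636 and 0.827) and was lower in MMTV-neu (-1.56, limma adjusted p = 4.50e-06).

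Markers of other cells moved with these results in part. Of 9 fibroblast markers, Dcn and Pdgfra were lower than Comma-D in both 1:50 fractions (Dcn by differences of -3.41 and -3.42) and Col1a2 was higher. Their summed linear intensity was 4882 to 5110 on the Comma-D arrays, 2776 to 4184 in the 1:50 erbB2- and 2744 to 3902 in the 1:50 erbB2+ fraction. It was 2357 to 3662 in the 1:1 erbB2- fraction, 1607 to 1906 in the 1:1 erbB2+ fraction and 1543 to 1719 in MMTV-neu. Of 12 luminal markers limma called none in the 1:50 erbB2- fraction, with 4 at an unadjusted p under 0.05, while Krt8, Krt19 and Foxa1 were higher and Krt18 lower in the 1:50 erbB2+ fraction. The mean level of 11 basal markers was 9.29 to 9.31 in Comma-D, 9.61 to 9.88 in the 1:50 erbB2-, 9.45 to 9.91 in the 1:50 erbB2+, 9.19 to 9.59 in the 1:1 erbB2-, 8.29 to 8.78 in the 1:1 erbB2+ fraction and 7.41 to 7.58 in MMTV-neu. The mean level of 8 endothelial markers was 5.36 to 5.38 in Comma-D, 5.36 to 5.44 in the 1:50 erbB2-, 5.42 to 5.68 in the 1:50 erbB2+ fraction and 6.23 to 6.35 in MMTV-neu, below the array medians. The part of these markers in the results was not tested.

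The genes with the profile most like each member were found by the root mean square difference of their 6 group means, each taken from its own mean over the groups, among 17064 candidates. For Errfi1 they were Ccn1 (0.146), Nr4a1 (0.165) and Gstm1 (0.179), all in log2 units. For Dusp6 they were Btg2 (0.228), Errfi1 (0.230) and Cxcl12 (0.245). The nearest to Dusp4 were Mfsd6 (0.0744), Endod1 (0.0815) and Ahr (0.0983), and to Dusp5 Rtn4rl2 (0.0992), Arrb1 (0.0999) and Six4 (0.137). For the genes with smaller ranges the nearest were Dock4 for Spry1 (0.0525), Plcl1 for Spry2 (0.0590), Pnma1 for Spry4 (0.0216), Lyst for Spred1 (0.0646), Mcrs1 for Etv4 (0.0343) and Slc25a23 for Etv5 (0.0484). Among the 45 pairs of the 10 genes, Spry1 and Etv5 were nearest (0.151), followed by Spry4 and Etv4 (0.216) and by Errfi1 and Dusp6 (0.230), and Dusp5 and Dusp6 were farthest apart (1.85). A small distance also follows from a small range, so these values describe the profiles and rank no genes by relation.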

How the data were processed

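Affymetrix mouse gene arrays measured RNA of 18 samples in 6 groups. The deposited values are on a log2 scale, and per the submitters' processing notes the authors made them with RMA in R 3.1.2 and used limma. RMA usually includes quantile normalization, which gives arrays near-equal distributions. The deposited columns do not have them, so the stated method and the values disagree and the scaling that was used is not known. Of 35556 probe sets, 21789 were assigned to a single gene by the platform annotation, 1621 to several and 12146 were not annotated. Each of 19938 genes was read from the single-gene probe set whose mean over the 18 arrays was highest. All 18 arrays were fitted together by group (lmFit and eBayes in limma 3.58.1, R 4.3.3, 12 residual degrees of freedom), with Benjamini-Hochberg adjustment over all genes of a comparison, two-sided. Second probe sets were tested in a fit of all probe sets. The same steps were tested on simulated data with 19938 genes for the 1:50 erbB2+ and Comma-D comparison, where 85 of 100 genes changed by 1 and 99 of 100 changed by 2 log2 units were recovered. Among the genes left unchanged, 8 were called. The simulated arrays had no difference in scale, so this test does not bear on the scale differences between the real arrays. The number of arrays limits the precision.

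The 10 genes and all lists were chosen with earlier results of these data known, so no list is independent evidence. Named besides the 10 were up to 4 genes of each list with the largest differences among those called, the nearest profiles, the check genes Erbb2, Egfr, Krt8, Krt14, Vim and Actb, and called members of the marker lists (these last chosen after their values were seen). Of 11 reference genes, 8 were measured and used for centring. Alternatives were other scalings, low genes left out, the mean of probe sets, other priors and thresholds, the compared groups alone, replicate number as a block and single arrays left out. Cyclic loess and fits without MMTV-neu were added after the data were seen. Promoters came from RefSeq tables.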

Additional observations from a re-analysis of the deposited data

Results flagged for a closer look

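In the values as deposited, the difference between the erbB2+ and erbB2- fractions of Errfi1 and Dusp6 was not of equal size in the co-cultures, by a direct test of the interaction. For Errfi1 the difference at 1:50 less that at 1:1 was 1.05 (SE 0.18, limma adjusted p = 0.00727), from -0.25 at 1:50 and -1.30 at 1:1. For Dusp6 it was 1.16 (SE 0.27, limma adjusted p = 0.0349), from -0.43 and -1.59. Both were lost under the 3 rescalings, with limma adjusted p of 0.0638 to 0.228 for Errfi1 and 0.0639 to 0.101 for Dusp6, and the sign was kept in each. The 1:1 erbB2+ arrays had SDs over probe sets of 1.61 to 1.71 and the 1:50 erbB2+ arrays of 1.85 to 1.96. The term is not particular to feedback genes. Of the 8 reference genes, Tbp alone was called, at 1.15 (limma adjusted p = 0.0334), and the mean of the 8 was 0.40. The part of the scale difference between the arrays in the interaction was not tested beyond these rescalings.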

How the results depend on the processing

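Counting a sign change only where the difference was called before or after it, centring on reference genes turned 7 differences: in MMTV-neu against Comma-D, Spry2 to 1.03 and Etv5 to 0.27; in the 1:50 erbB2+ fraction against MMTV-neu, Spry1 to -0.79, and against the 1:1 erbB2+ fraction, Etv5 to -0.64; in the 1:1 erbB2+ fraction, Spry2 to 0.58 against Comma-D, and Dusp4 to 0.47 and Etv5 to 0.47 against the erbB2- fraction. The cause was not tested, but centring moves every gene of an array by 1 amount. By that count no other setting turned a difference, while small differences that were never called changed sign under centring, the other rescalings and left-out arrays (Dusp5 of the 1:1 erbB2- fraction against Comma-D from 0.22 to -0.030 without replicate 1 of that fraction). Counts of called genes moved with centring to 3 (1:50 erbB2+ against Comma-D), 2 (1:50 erbB2- against Comma-D), 5 (1:1 erbB2+ against MMTV-neu), 9 (1:1 fractions) and 0 (interaction). Quantile normalization gave 2 for the 1:50 erbB2- fraction against Comma-D and 1 for the interaction. Cyclic loess gave 4 between the erbB2+ fractions and 0 for the interaction, where 8964 and 506 of all genes were called. Fits of the compared groups alone gave 0 between the erbB2- fractions and 1 for the interaction. At an adjusted p under 0.01 the 1:50 erbB2- count against Comma-D was 3 and the interaction 1. Of all genes, 144 and 87 passed that threshold. Asking also for a difference of 1 or more left 5 (1:50 erbB2+ against MMTV-neu), 6 (1:1 erbB2+ against Comma-D), 1 (1:1 erbB2+ against MMTV-neu), 4 (erbB2+ fractions), 2 (1:50 erbB2- against Comma-D), 1 (erbB2- fractions) and 3 (1:1 fractions). Over all genes the same rule left 5031, 5614, 391, 3127, 101, 230 and 1626, in that order. A count of 0 here means by limma at the adjusted threshold.

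With single arrays left out, counts ranged from 9 to 10 (MMTV-neu against Comma-D), 4 to 5 (1:50 erbB2+ against Comma-D), 7 to 9 (1:50 erbB2+ against MMTV-neu), 9 to 10 (1:1 erbB2+ against Comma-D), 3 to 4 (1:1 erbB2+ against MMTV-neu), 7 to 8 (erbB2+ fractions), 3 to 5 (1:50 erbB2- against Comma-D), 7 to 8 (1:1 erbB2- against Comma-D), 2 to 4 (erbB2- fractions), 0 to 0 (1:50 fractions), 5 to 6 (1:1 fractions) and 1 to 5 (interaction). The same fits called, over all genes and in that order, 16776 to 17060, 441 to 1485, 15683 to 16598 and 14400 to 15398. Next came 1362 to 4387, 11979 to 14349, 146 to 289 and 2885 to 9193. The last were 1065 to 8726, 2 to 3, 6737 to 13221 and 115 to 5303. Of the single differences refitted in this way, 747 kept their side of the threshold, 22 lost a call and 11 gained one. Other priors changed none of 120 differences.

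The labels do not say that a replicate number marks a shared culture or day, and not every same-numbered pair correlated over 0.1, so the numbers were not taken to pair the samples. The data hold a hint of pairing: deviations of same-numbered arrays correlated from -0.26 to 0.85 (mean 0.15, 19 of 45 pairs over 0.1), against a mean of -0.073 and 11 of 90 pairs for other numbers, and 13 of 18 arrays were closest to their own number. With replicate number as a block no call was lost, and the counts rose to 6 (1:50 erbB2+ against Comma-D), 4 (1:1 erbB2+ against MMTV-neu), 8 (erbB2+ fractions), 4 (erbB2- fractions) and 3 (interaction). Of all 19938 genes, 1875, 4574, 14564, 7692 and 1288 were then called, in the same order. The gains were Spred1 in the first (limma adjusted p = 0.0148), between the erbB2- fractions (0.0135) and in the interaction (0.0131), Dusp5 against MMTV-neu (0.0440) and Spry1 between the erbB2+ fractions (0.0385).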
